A study of Mus musculus with 6 samples.

Results

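The transcription factors that give the embryonic heart and its outflow tract their identity were followed at the RNA level in cultured aortic smooth muscle cells with and without the lysine methyltransferase gene Smyd2. The members were the T-box genes Tbx2, Tbx3, Tbx5, Tbx18 and Tbx20, the GATA zinc-finger genes Gata4 and Gata6, the basic helix-loop-helix genes Hand1 and Hand2, and the homeobox gene Nkx2-5, 10 genes in all. They were chosen by symbol, and 8 of the 10 had a row among the 18112 genes of the table. Tbx5 and Hand1 were not analysed here. Of the 8, 4 had a mean of at least 0.5 FPKM over the 6 libraries and entered the test with 12565 genes. FPKM is the number of fragments of a gene scaled by transcript length and sequencing depth, so levels of different genes can be set side by side.

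RNA-seq was performed on primary vascular smooth muscle cells (VSMCs) released by collagenase from the media of the thoracic aorta of mice aged 8 to 10 weeks. By the study's methods the adventitia had been removed, and staining for smooth muscle actin put the purity of each batch above 95%. All mice carried Smyd2 alleles with loxP sites around exon 2, and 3 libraries came from littermates without Cre (Smyd2 fl/fl, below the controls) and 3 from mice that also carried Tagln-Cre (Smyd2 SMC-/-, below the knockouts). The Tagln (SM22 alpha) promoter that drives this Cre is known to be active outside smooth muscle as well, including the developing heart. The labels put the cells at passage 6 in medium with 10% FBS, whereas the study's methods give passage 4 and an overnight starvation. No source says whether the libraries of a group came from separate animals, so p-values measure only the spread between these samples, which may be technical.

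In the embryo these factors work together. GATA4, TBX5 and NKX2-5 bind jointly at the enhancers of cardiac muscle genes and activate them, while TBX2 and TBX3 are repressors that occupy related T-box elements and keep such genes silent in the pacemaker, valve and outflow regions. HAND2 is needed for growth of the outflow tract and right ventricle, TBX20 acts in the chambers and valves, and TBX18 marks the epicardium and the mural cells that descend from it. GATA6 is the GATA factor best known in vascular smooth muscle, where it has been tied to the contractile, quiescent state, and it also acts in neural crest-derived smooth muscle of the outflow tract.

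The deleted gene was read before any member. Smyd2 stood at 7.87, 3.10 and 3.0 FPKM in control replicates 1, 2 and 3 and at 1.67, 0.40 and 0.80 FPKM in the knockout replicates of the same numbers. Each Smyd2 SMC-/- library lay below each Smyd2 fl/fl library, so the groups did not overlap, and some Smyd2 RNA was left in every library labelled Smyd2 SMC-/-. The values are per gene, so RNA that lacks exon 2 and RNA of the undeleted allele cannot be told apart. In the annotation Smyd2 overlaps the opposite-strand gene Gm37422 and the same-strand gene Gm38245, so reads of these genes may be counted with it. The fitted difference was -1.48 ± 0.39 (SE) on the log2(FPKM + 1) scale, with an adjusted p of 0.105 by limma and of 0.0189 with the replicate numbers entered as a block in limma (0.00126 to 0.305 over the alternatives). On this scale differences of genes with low values are understated.

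The libraries of replicate 1 stood apart from those of replicates 2 and 3 in both groups. Same-numbered libraries deviated together from their group means (r = 0.61, 0.46 and 0.53 across genes). Replicates 2 and 3 of opposite groups correlated nearly as well (0.46 and 0.44). The values thus set replicate 1 apart but do not show which of replicates 2 and 3 belong together, and the study's methods name no pairing. A blocked value, which takes the numbers of the labels as pairs, is given wherever it changed a call. Because replicate 1 stood apart, the difference within each replicate number is given beside the fitted one for the factors that were expressed.

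Detection divided the members into 2 sets. Gata6, Tbx18 and Gata4 were above 1 FPKM in every library, and Tbx3 was above 1 FPKM in the 3 Smyd2 fl/fl libraries and below it in the 3 Smyd2 SMC-/- libraries. Nkx2-5, Tbx2, Hand2 and Tbx20 stayed below 1 FPKM throughout. Above 0 FPKM in every library of a group, 7 members were detected in the controls and 5 in the knockouts; with at least 0.1 FPKM asked of every library, the numbers were 4 and 5. Tbx2 is the gene that passed this stricter rule in the knockouts and not in the controls. In order of mean level over the 6 libraries, the members ran from Gata6 at 74.7 FPKM through Tbx18 at 6.14, Gata4 at 4.47 and Tbx3 at 1.41 to Nkx2-5 at 0.213, Tbx2 at 0.160, Hand2 at 0.107 and Tbx20 at 0.00667 FPKM. Gata6 lay far above its neighbour in every library. Tbx18 exceeded Gata4 in every Smyd2 fl/fl library, whereas in the knockouts the ranges of these 2 genes overlapped. Of the 4 lowest genes, Tbx20 was above none of the others in any library, and the order of Nkx2-5, Tbx2 and Hand2 varied between libraries.

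**Figure D1:**
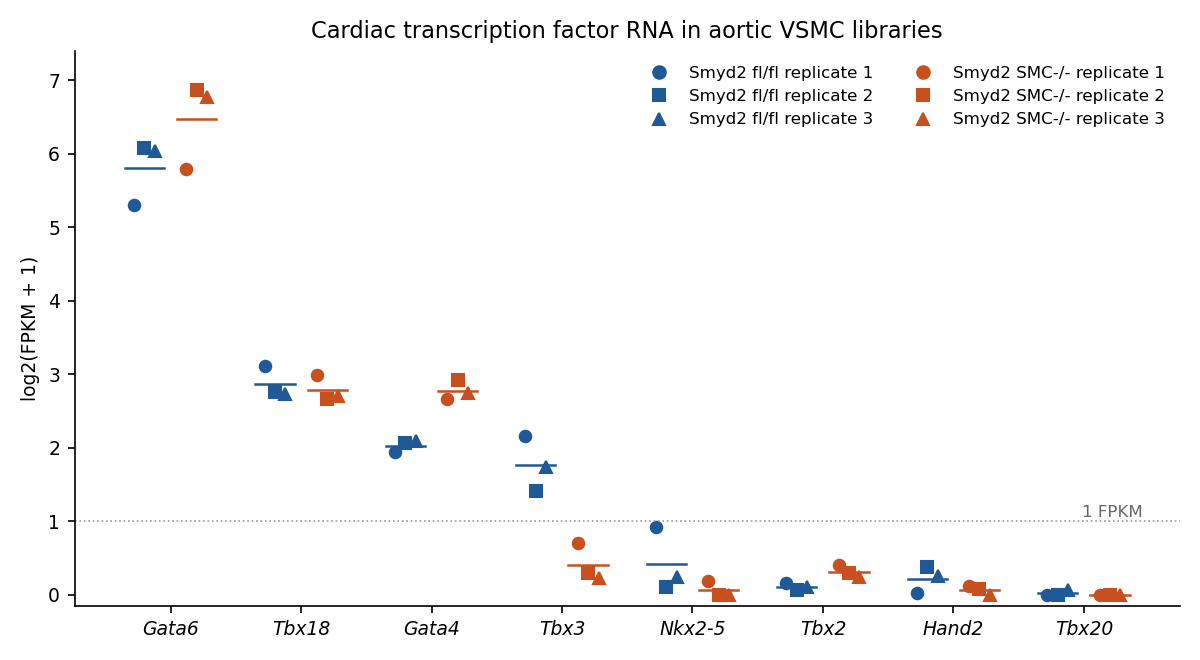
RNA levels of the 8 measured members on the log2(FPKM + 1) scale (vertical axis), with 1 point per library, blue for Smyd2 fl/fl and orange for Smyd2 SMC-/-, the replicate number by marker shape, and short lines for the mean of the 3 log2 values of a group. Gata6 is highest in every library, and the 4 genes on the right stay under the dotted line at 1 FPKM. Gata4, Tbx3 and, at far lower levels, Tbx2 show groups that do not overlap, as do 23.0% of all genes.

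Promoter sequences of 4 of the 10 members were matched by symbol in the RefSeq table (build GRCm38.p6), namely Hand2, Nkx2-5, Tbx18 and Tbx20. The 250 bases before the RefSeq start are printed for Tbx18, the steadiest of the expressed members, and for Hand2 and Nkx2-5, which were near the limit of detection, so that an expressed and 2 barely expressed cardiac genes can be compared. Tbx18 lies on the minus strand (chr9:87731261-87731510), Hand2 on the plus strand (chr8:57320733-57320982) and Nkx2-5 on the minus strand (chr17:26841566-26841815). All 3 windows are upstream of the RefSeq start, that of Nkx2-5 lying inside the longer gene annotated by GENCODE (chr17:26838664-26845009), and are written 5′ to 3′ on the strand of the gene. Capitals mark GATA motifs (the hexamer AGATAA, the hexamer AGATAG, and the same with T as the first letter, TGATAA and also TGATAG) and E-boxes (CANNTG), the class of element that HAND2 and its partners bind, on either strand.
Tbx18: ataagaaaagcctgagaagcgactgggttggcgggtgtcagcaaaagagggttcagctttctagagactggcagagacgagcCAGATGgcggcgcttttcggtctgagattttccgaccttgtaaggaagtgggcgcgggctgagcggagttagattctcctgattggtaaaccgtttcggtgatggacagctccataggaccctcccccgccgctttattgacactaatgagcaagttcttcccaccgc
Hand2: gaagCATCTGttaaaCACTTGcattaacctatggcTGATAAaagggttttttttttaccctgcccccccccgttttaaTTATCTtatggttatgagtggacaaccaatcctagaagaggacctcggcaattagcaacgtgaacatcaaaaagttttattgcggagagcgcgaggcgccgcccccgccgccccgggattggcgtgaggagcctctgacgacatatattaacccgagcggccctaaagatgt
Nkx2-5: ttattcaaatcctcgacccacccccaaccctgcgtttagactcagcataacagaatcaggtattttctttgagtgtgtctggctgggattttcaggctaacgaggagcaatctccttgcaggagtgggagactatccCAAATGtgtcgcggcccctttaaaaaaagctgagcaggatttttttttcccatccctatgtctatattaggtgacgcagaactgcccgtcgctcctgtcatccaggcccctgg

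The Hand2 window held 2 GATA motifs, which began 215 and 172 bases before the start, and 2 E-boxes. The Tbx18 and Nkx2-5 windows held no GATA motif and 1 E-box each, and the Tbx20 window held neither. Among all 32851 promoters of the same length, 26.5% held a GATA motif and 66.2% an E-box. The T-box half-site AGGTGT (in 11.8% of promoters), the NK2 motif TNAAGTG (in 10.1%) and the CArG box of smooth muscle genes (in 1.5%) were found on neither strand of the 4 windows. The share of G and C was 54.0% for Tbx18, 49.2% for Hand2, 49.2% for Nkx2-5 and 68.8% for Tbx20, against a median of 52.4%, and the windows held 15, 15, 8 and 22 CpG dinucleotides. A match of this kind describes the letters of the window and says nothing about binding.

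Among the 4 tested members, Gata4 and Gata6 had higher values and Tbx3 lower values in the knockouts within every replicate number, while Tbx18 was nearly level. By limma at an adjusted p of 0.05, 0 of 4 were called lower and 0 were called higher, where 2.44% of all tested genes were called; 2 of 4 had an unadjusted p under 0.05, as did 20.3% of all genes. With the replicate block, limma called 1 of 4 lower, Tbx3, where 5.72% of all genes were called lower. It called 2 of 4 higher, Gata4 and Gata6, where 4.72% were called higher. These shares also apply to the lists below. Tbx3 passed the filter of 0.5 FPKM only through the controls (means of 2.48 FPKM there and 0.340 FPKM in the knockouts). Tested without the filter or the block, its adjusted p by limma was 0.0677. The groups did not overlap for 2 of the 4, Tbx3 and Gata4, against 28.1% of all tested genes. Their median log2 fold change was 0.29, against -0.018 over all tested genes. The exact permutation test over the libraries, two-sided, gave p = 0.1 for Tbx3 and for Gata4, the smallest that 3 against 3 libraries allow, 0.3 for Gata6 and 0.5 for Tbx18.

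**Figure D2:**
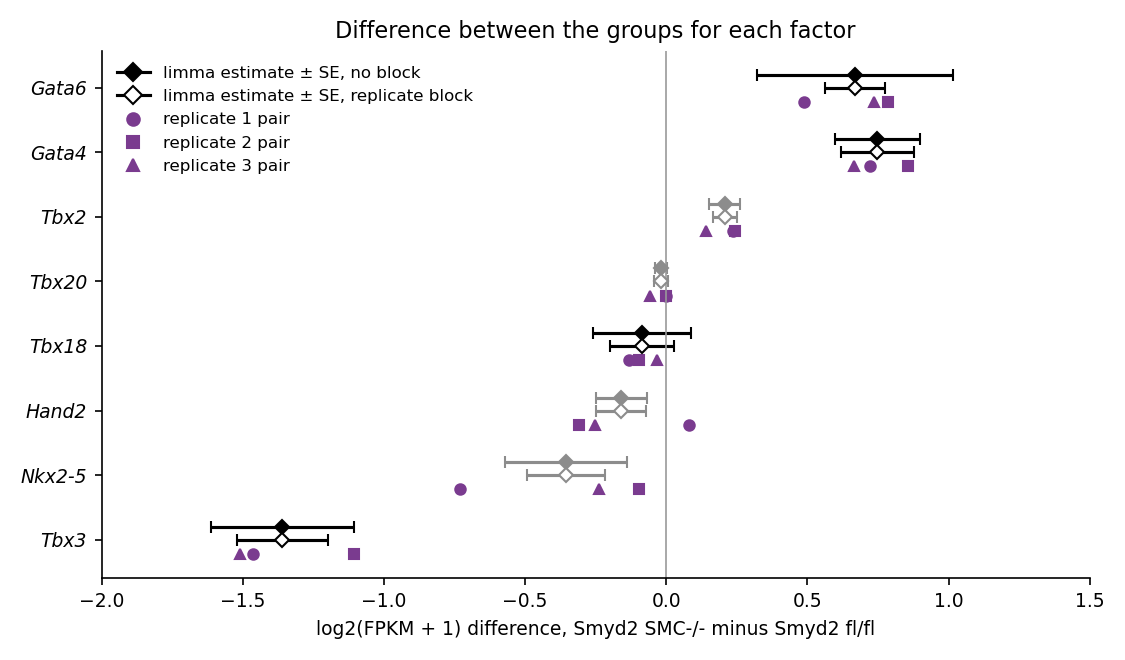
Difference between Smyd2 SMC-/- and Smyd2 fl/fl on the log2(FPKM + 1) scale (horizontal axis) for each measured member, as the limma estimate ± SE without (filled diamonds) and with (open diamonds) the replicate block, and as the plain difference within each replicate number (purple). Black marks the 4 members tested in the filtered table and grey the 4 read from the table of all genes; the 3 purple points of Gata6, Gata4 and Tbx3 each lie on the same side of 0.

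Gata6 (gene ID 14465) was the most abundant member by far. It stood at 38.5, 66.8 and 64.4 FPKM in control replicates 1, 2 and 3 and at 54.4, 116 and 108 FPKM in knockout replicates 1, 2 and 3. Replicate 1 was the lowest library of each group, and as the Smyd2 SMC-/- replicate 1 value lay below the Smyd2 fl/fl values of replicates 2 and 3, the groups overlapped. The group means were 56.6 ± 15.7 and 92.8 ± 33.5 FPKM (SD, n = 3 each), a ratio of 1.64. The differences within replicate numbers 1, 2 and 3 were 0.49, 0.79 and 0.73 on the log2(FPKM + 1) scale, so the direction was shared by all 3. The fitted log2 fold change was 0.67 ± 0.35 (SE), with an adjusted p of 0.338 by limma and of 0.0314 by limma with the replicate block. From replicates 2 and 3 alone limma gave 0.76 with an adjusted p of 0.00192, in a fit that called 29.0% of all genes. The estimate was 0.42 without Smyd2 fl/fl replicate 1 and 1.01 without Smyd2 SMC-/- replicate 1; over all alternatives the adjusted p ran from 0.00192 to 0.663. The level was high in rank as well: 87.9% to 96.9% of genes had a lower FPKM in the same library. Taken as fragments, about 2206 to 7056 per library came from Gata6, so counting error is small beside the spread between libraries.

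The split of Gata6 between replicate 1 and the other replicates was shared by markers of epicardium and mesothelium. Gata4, Gata6 and Tbx18 are themselves known to be expressed in these tissues. Tbx18 did not share the split: replicate 1 was its highest library in each group (7.67 FPKM in the controls and 6.91 FPKM in the knockouts). Gata4 was lowest in replicate 1 only by a small margin. The summed level of the 7 markers (Wt1, Upk3b, Upk1b, Msln, Lrrn4, Aldh1a2 and Bnc1) was 32.8, 182 and 191 FPKM in the controls and 58.9, 338 and 210 FPKM in the knockouts. Both replicate 1 libraries were thus several times below the others of their group, as Gata6 was lower there too. Upk1b, a uroplakin that mesothelial cells also make, had the highest mean of the list over the 6 libraries. Upk3b and Bnc1 exceeded it in both replicate 1 libraries, and Lrrn4 did in control replicates 1 and 3. Upk1b stood at 3.92, 44.0 and 47.7 FPKM in the controls and at 10.4, 126 and 73.9 FPKM in the knockouts. Bnc1 was at 14.7 to 44.6 FPKM with overlapping groups. None of the 7 was below 0.1 FPKM in every library. Aldh1a2 was at 0.02 FPKM or less in the 3 Smyd2 fl/fl libraries and at 0.42, 5.68 and 3.32 FPKM in the knockouts, through which alone it passed the filter. It was the only marker of the 7 whose groups did not overlap, with a log2 fold change of 1.78 ± 0.54 (SE) and an adjusted p of 0.138 by limma. Limma called 0 of the 7 in either direction (1 had an unadjusted p under 0.05). With the replicate block 3 were called higher in the knockouts, where 4.72% of all tested genes were called higher. They were Wt1, Upk3b and Upk1b, with adjusted p-values of 0.0330, 0.0491 and 0.0333 by limma with the block (0.00429 to 0.679, 0.0305 to 0.881 and 0.0284 to 0.993 over the alternatives). Wt1 was named after its values were seen. The list was not uniform: Lrrn4 was lower in the knockouts within each replicate number, at 3.96, 42.6 and 47.9 FPKM in the controls against 2.44, 25.1 and 15.1 FPKM (adjusted p of 0.691 by limma), and Msln, also named after its values were seen, was at 0.52, 26.0 and 23.8 FPKM against 0.74, 10.1 and 6.92 FPKM (0.748 by limma). From replicates 2 and 3 alone limma called 2 of the 7 lower and 5 higher, in the fit that called 29.0% of all tested genes. The part of these cells or genes in the Gata6 and Gata4 values was not tested, and in bulk RNA fewer cells of a type and less RNA per cell cannot be told apart.

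**Figure D3:**
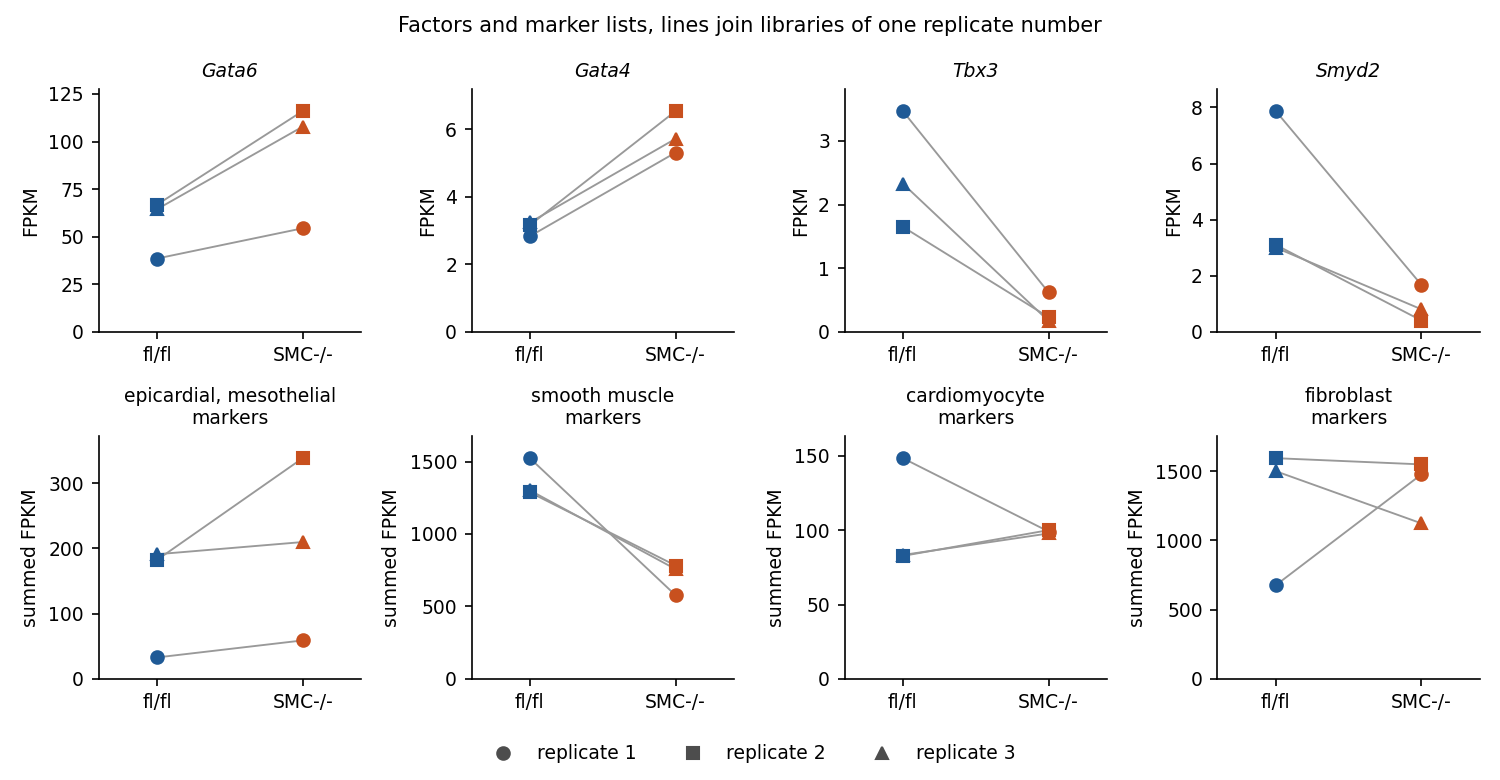
FPKM of Gata6, Gata4, Tbx3 and Smyd2 (top row) and summed FPKM of 4 marker lists (bottom row) in the 6 libraries, with grey lines joining libraries of the same replicate number and every vertical axis starting at 0. The replicate 1 libraries (circles) are the lowest of their group for Gata6 and for the epicardial and mesothelial markers, at 32.8 and 58.9 FPKM summed.

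Gata4 (gene ID 14463; chr14:63198922-63271692, GRCm38, minus strand), which drives cardiac muscle genes together with NKX2-5 and TBX5, was expressed at a much lower level and varied little within a group. It stood at 2.83, 3.16 and 3.24 FPKM in the controls and at 5.31, 6.54 and 5.72 FPKM in the knockouts. All 3 Smyd2 SMC-/- libraries were above all 3 Smyd2 fl/fl libraries, and replicate 1 was the lowest of each group by a small margin. The means were 3.08 ± 0.217 and 5.86 ± 0.626 FPKM (SD, n = 3 each), a ratio of 1.90. The differences within replicate numbers were 0.72, 0.86 and 0.66 on the log2(FPKM + 1) scale. The fitted log2 fold change was 0.75 ± 0.15 (SE), with an adjusted p of 0.0589 by limma, 0.0357 with the replicate block, 0.0404 after rescaling to TPM and 0.0430 without Smyd2 SMC-/- replicate 1 (range over the alternatives 0.00505 to 0.234). The rescaling to TPM moved the median of all tested genes up by 0.11, from -0.018 to 0.095, and the Gata4 estimate to 0.96. Taken from that median, the log2 fold changes after rescaling were 0.86 for Gata4, 0.70 for Gata6, -1.96 for Tbx3 and -0.072 for Tbx18. About 585 fragments in all came from Gata4 in the Smyd2 fl/fl libraries and about 1068 in the Smyd2 SMC-/- libraries.

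The GATA family was also read as shares of its summed FPKM, with no test. Gata2, best known from endothelial and blood progenitor cells, was at 35.7, 18.2 and 16.8 FPKM in the controls and at 9.07, 2.42 and 4.23 FPKM in the knockouts. Its groups did not overlap, and the replicate 1 library was the highest of each group, the reverse of Gata6. The log2 fold change was -2.04 ± 0.45 (SE) with an adjusted p of 0.0718 by limma, 0.0112 with the replicate block and 0.0280 without Smyd2 SMC-/- replicate 1 (range over the alternatives 0.000517 to 0.252). Gata6 supplied 48.9%, 74.8% and 74.8% of the summed FPKM of the 5 measured GATA genes in the controls and 76.6%, 91.8% and 90.3% in the knockouts. The share of Gata2 was 45.4%, 20.4% and 19.5% against 12.8%, 1.92% and 3.54%, and that of Gata4 was 3.60%, 3.54% and 3.76% against 7.47%, 5.18% and 4.79%. The groups did not overlap in any of these 3 shares. Shares of 1 sum depend on each other, so a lower Gata2 share raises that of Gata6, whose groups overlapped by FPKM. By FPKM the groups did not overlap for 28.1% of all tested genes, a rate for single genes and not for shares. The ratio of Gata6 to Gata2 was 1.08, 3.67 and 3.84 in the controls and 6.00, 47.9 and 25.5 in the knockouts, whereas the ratio of Gata6 to Gata4 (13.6, 21.1 and 19.9 against 10.2, 17.7 and 18.9) overlapped. Gata3 lay between 0.97 and 2.26 FPKM with overlapping groups, and Gata5 did not exceed 0.17 FPKM in any library.

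**Figure D4:**
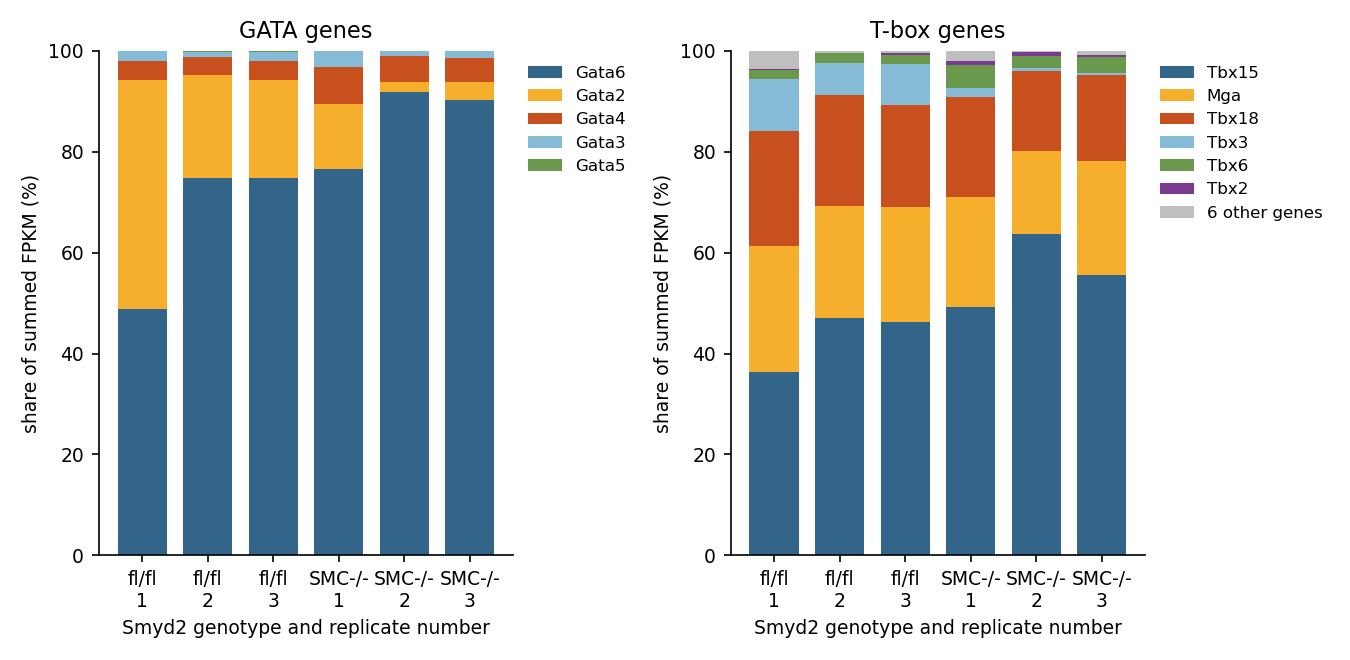
Share of the summed FPKM (vertical axis, percent) that each GATA gene (left) and T-box gene (right) supplied in each of the 6 libraries, labelled by genotype and replicate number. Gata6 supplies 48.9% to 74.8% of the GATA sum in the controls and 76.6% to 91.8% in the knockouts, and the Tbx3 share is 6.30% to 10.3% against 0.521% to 1.78%.

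Tbx3 (gene ID 21386), a repressor that maintains the identity of the conduction system, was the tested member with the lowest values in the knockouts relative to Smyd2 fl/fl. It stood at 3.47, 1.65 and 2.33 FPKM in the controls and at 0.62, 0.23 and 0.17 FPKM in the knockouts. The groups did not overlap, and replicate 1 was the highest library of each group. The means were 2.48 ± 0.920 and 0.340 ± 0.244 FPKM (SD, n = 3 each), 7.30 times higher in the controls. In fragments, about 298, 153 and 214 came from Tbx3 in the Smyd2 fl/fl libraries and about 49, 21 and 15 in the Smyd2 SMC-/- libraries, all above the 3 fragments that a count of 0 would allow. The differences within replicate numbers were -1.46, -1.11 and -1.51 on the log2(FPKM + 1) scale. The fitted log2 fold change was -1.36 ± 0.25 (SE), with an adjusted p of 0.0508 by limma, 0.0194 with the replicate block and 0.0355 without Smyd2 SMC-/- replicate 1 (range over the alternatives 0.00128 to 0.211). With a pseudocount of 0.1 the estimate was -2.63 with an adjusted p of 0.0543 by limma, and testing without the filter gave an adjusted p of 0.0677. In the annotation Tbx3 (chr5:119670669-119684724, GRCm38, plus strand) overlaps the antisense gene Tbx3os1, and as the strandedness of the libraries is not given in the sources used here, reads of the pair cannot be told apart.

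Tbx2 (chr11:85832551-85841948, GRCm38, plus strand), the closest relative of Tbx3 and a repressor at the same elements, was far less abundant and had the opposite order. It stood at 0.12, 0.04 and 0.07 FPKM in the controls and at 0.32, 0.23 and 0.18 FPKM in the knockouts. All Smyd2 SMC-/- values lay above all Smyd2 fl/fl values, as the groups of 23.0% of all 18112 genes did not overlap, but these levels rest on about 16 fragments in all in the controls and about 47 in the knockouts. In the fit over all genes the log2 fold change was 0.21 ± 0.056 (SE), with an adjusted p of 0.147 by limma (0.0663 to 0.384 over the alternatives). Tbx3 exceeded Tbx2 in every Smyd2 fl/fl library, whereas in Smyd2 SMC-/- replicates 2 and 3 the 2 genes were within 0.01 FPKM of each other.

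Tbx18 (gene ID 76365), the factor of the epicardium, stood at 7.67, 5.78 and 5.65 FPKM in the controls and at 6.91, 5.35 and 5.51 FPKM in the knockouts. The groups overlapped, with replicate 1 the highest library of each. The means were 6.37 ± 1.13 and 5.92 ± 0.858 FPKM (SD, n = 3 each). The fitted log2 fold change was -0.086 ± 0.175 (SE), with an adjusted p of 0.842 by limma. The differences within replicate numbers were -0.13, -0.095 and -0.031, all of 1 sign but each smaller than this SE. With the replicate block the SE was 0.115, which the replicate 1 difference exceeded in size, and the adjusted p by limma was 0.649. Without Smyd2 fl/fl replicate 1 the estimate was 0.037. The ratio of Tbx18 to Tbx3 was 2.21, 3.50 and 2.42 in the controls and 11.1, 23.3 and 32.4 in the knockouts. Tbx18 (chr9:87702800-87731260, GRCm38, minus strand) overlaps the opposite-strand gene D030062O11Rik, with the same limit as for Tbx3, which also holds for Gata6 and Hand2, each beside an opposite-strand non-coding gene.

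In the fit of all genes, limma called 0 of the 4 members below the filter in either direction, where 1.36% of all genes were called, and 1 of them, Tbx2, had an unadjusted p under 0.05. Nkx2-5, the homeobox factor of the cardiac progenitor, was barely detected. It stood at 0.89, 0.07 and 0.18 FPKM in the controls and at 0.14, 0 and 0 FPKM in the knockouts. Most of its signal came from Smyd2 fl/fl replicate 1, with about 24 fragments, and the groups overlapped. Within replicate numbers 1, 2 and 3 the differences were -0.73, -0.098 and -0.24. In the 2 libraries listed at 0, 3 fragments would have amounted to 0.106 and 0.109 FPKM, so a 0 there allows levels up to about these values. The fitted log2 fold change was -0.36 ± 0.22 (SE) with an adjusted p of 0.490 by limma. Hand2 stood at 0.02, 0.30 and 0.19 FPKM in the controls and at 0.08, 0.05 and 0 FPKM in the knockouts, on about 22 and 5 fragments in all, and its groups overlapped (adjusted p of 0.456 by limma). The order within replicate number 1 was the reverse of that within numbers 2 and 3. Tbx20 had a value above 0 in 1 library, Smyd2 fl/fl replicate 3, at 0.04 FPKM or about 1 fragment. For this gene 3 fragments would have amounted to 0.0879 to 0.103 FPKM in these libraries, and no fold is given. The fragment values of Tbx20 use a length of 1801 bases. Its listed transcripts run up to 9091 bases, for which the same FPKM would mean more fragments. Floors of this kind cover counting error only.

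Other genes of the T-box family were read from a list. Of 12 listed, 8 had a row and 3 were tested, and limma called 0 of 3 in either direction (2 had an unadjusted p under 0.05) and 1 of 3 higher with the replicate block. That gene, Tbx15, known from limb, skin and adipose mesenchyme, was the most abundant T-box gene at 12.2, 12.3 and 13.0 FPKM in the controls and 17.2, 21.6 and 18.1 FPKM in the knockouts. Its groups did not overlap, and its log2 fold change was 0.55 ± 0.13 (SE), with an adjusted p of 0.0826 by limma and 0.0471 with the replicate block (0.00852 to 0.272 over the alternatives). Mga, which pairs a T-box with a MAX-binding domain, lay between 5.59 and 8.41 FPKM with overlapping groups. Tbx6, a factor of the paraxial mesoderm, was at 0.58, 0.49 and 0.49 FPKM against 1.54, 0.80 and 1.00 FPKM (adjusted p of 0.245 by limma), and Eomes did not exceed 0.69 FPKM. Over the 12 measured T-box genes, members included, Tbx3 supplied 10.3%, 6.30% and 8.27% of the summed FPKM in the controls and 1.78%, 0.680% and 0.521% in the knockouts.

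Of the 12 other GATA and NK homeobox genes listed, 7 had a row and 3 were tested. Limma called 1 of 3 higher, Nkx3-2, and 0 lower, and with the replicate block also Gata2 lower. Nkx3-2, a factor of axial skeleton and visceral mesenchyme, rose from 0.04, 0.29 and 0.19 FPKM to 1.41, 1.77 and 2.21 FPKM without overlap, a log2 fold change of 1.25 ± 0.19 (SE) with an adjusted p of 0.0309 by limma. Leaving out any library but Smyd2 SMC-/- replicate 1 ended that call, with adjusted p-values by limma of 0.0536 to 0.162. Nkx3-2 passed the filter only through the knockouts, as its control mean was 0.173 FPKM. Testing without the filter gave an adjusted p of 0.035 by limma. Nkx2-3, a relative of Nkx2-5 known from spleen and gut mesenchyme, was at 0.39 FPKM in Smyd2 SMC-/- replicate 1 and at 0.03 FPKM or less elsewhere.

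Cofactors and partner factors of the heart and outflow tract formed the largest related list. Of 33 listed genes, 30 had a row and 21 were tested, and limma called 3 higher and 0 lower, where 2.44% of all tested genes were called; 17 of the 21 had a positive log2 fold change, as did 6032 of all 12565 tested genes, with a median of 0.38 against -0.018 over all tested genes. The 3 were the myocyte enhancer factors Mef2a and Mef2c and the SWI/SNF subunit Smarcd3, which carries cardiac factors to chromatin. Mef2c, a target of GATA factors in the anterior heart field, rose from 0.10, 0.31 and 0.35 FPKM to 1.60, 3.05 and 4.33 FPKM without overlap. Its log2 fold change was 1.62 ± 0.29 (SE), with an adjusted p of 0.0448 by limma. Mef2c passed the filter only through the knockouts, as its control mean was 0.253 FPKM. Smarcd3 rose from 8.72, 9.98 and 8.43 FPKM to 24.0, 16.5 and 17.3 FPKM, a log2 fold change of 1.00 ± 0.17 (SE; adjusted p of 0.0444 by limma). Mef2a rose from 20.6, 17.6 and 19.0 FPKM to 29.1, 31.4 and 34.7 FPKM, a log2 fold change of 0.70 ± 0.13 (SE; adjusted p of 0.0474 by limma). For all 3 genes each Smyd2 SMC-/- library was above each Smyd2 fl/fl library. Leaving out any library but Smyd2 SMC-/- replicate 1 ended each call, with adjusted p-values by limma of 0.0867 to 0.171 for Mef2c, 0.0822 to 0.180 for Smarcd3 and 0.0539 to 0.218 for Mef2a, and testing without the filter gave 0.0659, 0.0633 and 0.0610. Quantile normalization also ended the Mef2c call (adjusted p of 0.0505 by limma).

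With the replicate block, 5 genes of that list were called higher and 0 lower, where 4.72% and 5.72% of all tested genes were called higher and lower. The added ones were Zfpm1 and Foxc2. Zfpm1, a zinc-finger cofactor of GATA proteins, was at 8.03, 18.3 and 19.1 FPKM in the controls and at 14.0, 28.3 and 24.8 FPKM in the knockouts, lowest in replicate 1 of each group, like Gata6. Its adjusted p was 0.482 by limma and 0.0458 with the block (0.0141 to 0.769 over the alternatives). Foxc2, singled out after its values were seen, was at 8.26, 5.31 and 5.37 FPKM against 12.0, 8.30 and 8.84 FPKM (adjusted p by limma of 0.222, and 0.0437 with the block; 0.00799 to 0.462 over the alternatives). From replicates 2 and 3 alone, in the fit that called 29.0% of all tested genes, limma called 8 higher and 4 lower. The differences in this list thus did not all have the same direction. The most abundant genes of the list that were not called, Sox4, Tead1, Foxp1 and Meis2, had log2 fold changes of 0.20, 0.093, 0.093 and 0.40. The sign was negative without Smyd2 fl/fl replicate 1 for Sox4 (-0.16) and Foxp1 (-0.067) and without Smyd2 fl/fl replicate 2 for Tead1 (-0.058), so no direction is given for these 3. Myocd, the SRF coactivator of smooth and cardiac muscle, was at 0.48 FPKM in Smyd2 fl/fl replicate 1 and at 0.02 FPKM or less in the other 5 libraries, and was named after its values were seen.

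Genes known to lie downstream of the members were read next. All 17 listed had a row, 9 were tested, and limma called 0 in either direction (5 had an unadjusted p under 0.05); with the replicate block it called 2 lower and 3 higher. The cell cycle inhibitor Cdkn1a, which TBX2 and TBX3 are known to repress, was at 159, 162 and 154 FPKM in the controls and at 223, 252 and 222 FPKM in the knockouts. Its groups did not overlap, and the log2 fold change was 0.55 ± 0.11 (SE), with an adjusted p by limma of 0.0638, of 0.0371 with the block, of 0.0326 after rescaling to TPM and of 0.0348 after quantile normalization (0.0104 to 0.234 over the alternatives). Cdkn2a, another known target of these repressors, lay between 26.5 and 44.9 FPKM with overlapping groups and a log2 fold change of 0.068.

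Bmp4, a growth factor of the outflow tract and a GATA target, was at 20.7, 71.8 and 69.4 FPKM in the controls and at 206, 215 and 257 FPKM in the knockouts. The groups did not overlap, and Smyd2 fl/fl replicate 1 was the lowest library. The log2 fold change was 2.23 ± 0.47 (SE), with an adjusted p by limma of 0.0638, of 0.0314 with the block and of 0.0122 without Smyd2 fl/fl replicate 1, where the estimate was 1.66 (adjusted p-values of 0.000107 to 0.235 over the alternatives). Sema3c, a guidance cue of the outflow tract that GATA6 is known to activate, was at 28.7, 88.1 and 89.0 FPKM against 16.6, 62.2 and 58.2 FPKM. It was lower in the knockouts within each replicate number, while Gata6 was higher, and the adjusted p by limma was 0.655, and 0.0320 with the block (0.00683 to 0.985 over the alternatives). Gja1, the main gap junction gene of ventricular muscle, which TBX2 and TBX3 are known to repress, was at 21.4, 74.1 and 68.2 FPKM against 25.9, 124 and 72.8 FPKM, with overlapping groups and an adjusted p of 0.821 by limma. The other block-called genes, named after their values were seen, were Fgf10, at 29.6, 22.2 and 19.6 FPKM against 6.79, 0.53 and 1.43 FPKM, and Tgfb2, at 24.9, 18.7 and 19.5 FPKM against 44.8, 65.5 and 38.1 FPKM. Their adjusted p-values by limma were 0.0547 and 0.0553, and 0.0231 and 0.0369 with the block (0.0000945 to 0.214 and 0.0154 to 0.197 over the alternatives). The chamber genes Nppa and Nppb and the conduction-system connexin gene Gja5 did not exceed 0.76 FPKM in any library.

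**Figure D5:**
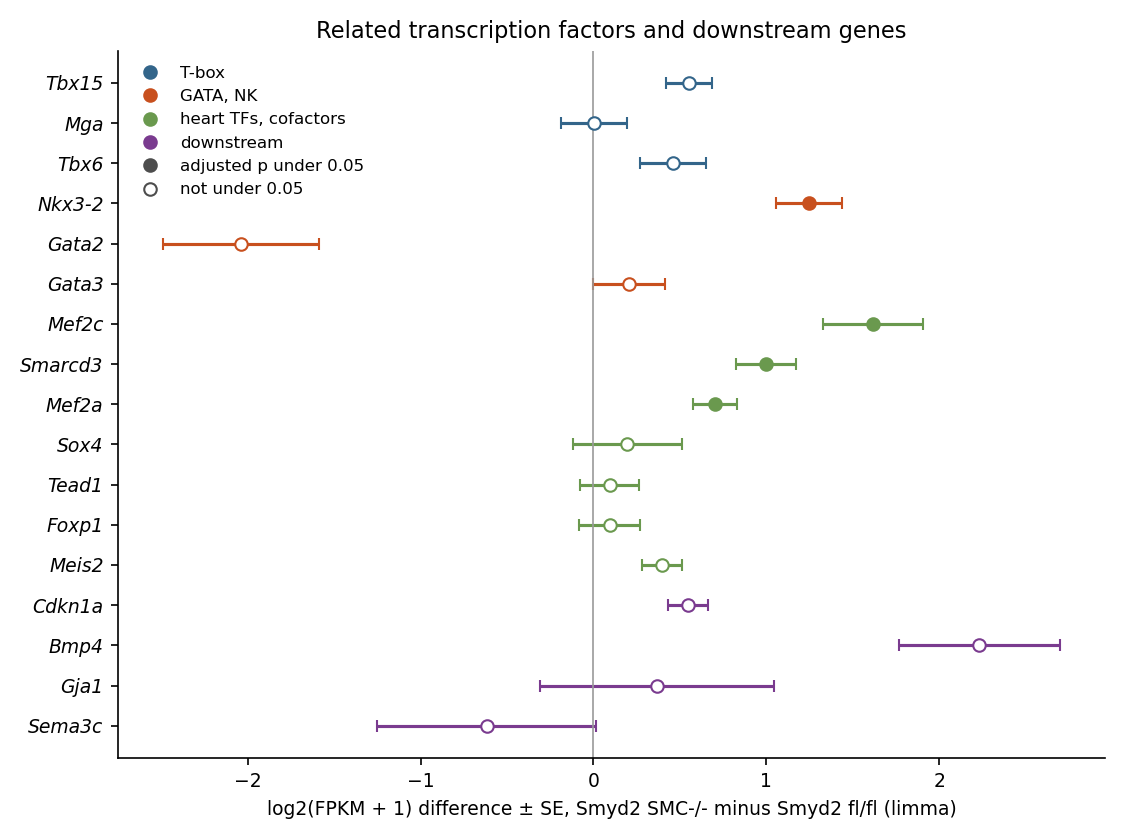
Limma estimate ± SE of the difference between Smyd2 SMC-/- and Smyd2 fl/fl on the log2(FPKM + 1) scale (horizontal axis) for the named T-box, GATA and NK, partner and downstream genes, coloured by list, with filled points for an adjusted p under 0.05. The 4 filled points are Nkx3-2, Mef2c, Smarcd3 and Mef2a, all to the right of 0, while Gata2 lies at -2.04 and Bmp4 at 2.23 with open points.

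Likeness of pattern over the 6 libraries was described by Pearson's r of log2(FPKM + 1) among 45 other listed factors and downstream genes, with no test. Gata6 was most like Zfpm1 (r = 0.96) and Gja1 (r = 0.88), both low in replicate 1 of each group. Gata4 was most like Tbx15 (r = 0.99) and Cdkn1a (r = 0.98). Tbx3 was most like Gata2 (r = 0.96) and Nr2f2 (r = 0.95), an orphan nuclear receptor of atrial and venous cells that was at 30.6, 28.4 and 26.5 FPKM in the controls and 23.8, 19.7 and 18.9 FPKM in the knockouts. Tbx18 was most like Ets1 (r = 0.85) and Mga (r = 0.80). The 6 points of each r share 2 groups and 3 replicate numbers, so each r reflects both.

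The cells were labelled aortic VSMCs, and their smooth muscle genes were mixed. All 12 listed markers had a row, with a summed level of 1523, 1287 and 1301 FPKM in the controls and 577, 782 and 757 FPKM in the knockouts. Acta2, smooth muscle actin, was the most abundant by mean over the 6 libraries, but in each knockout library Cald1 was higher (279, 290 and 315 FPKM). Acta2 fell from 761, 682 and 683 FPKM to 201, 268 and 262 FPKM. Its log2 fold change was -1.55 ± 0.15 (SE), with an adjusted p of 0.00803 by limma. That call ended without Smyd2 fl/fl replicate 2, Smyd2 fl/fl replicate 3 or Smyd2 SMC-/- replicate 3, with adjusted p-values by limma of 0.0541, 0.0615 and 0.0533. Limma called 1 of 8 tested markers lower and 0 higher, and 2 lower with the block. The second was Cald1 (adjusted p of 0.0488, and 0.0260 to 0.234 over the alternatives). Mylk and Lmod1, named after their values were seen, had positive log2 fold changes. Mylk was at 1.02, 3.62 and 3.75 FPKM in the controls and at 1.72, 7.14 and 9.68 FPKM in the knockouts (adjusted p of 0.505 by limma). Lmod1 was at 3.28, 2.71 and 2.83 FPKM against 1.22, 5.44 and 6.02 FPKM. From replicates 2 and 3 alone limma called 2 lower and 2 higher, where 29.0% of all genes were called. Myh11, the myosin that defines contractile smooth muscle, did not exceed 0.22 FPKM, and Des, Itga8 and Synpo2 were at most 0.38 FPKM. These 4 markers were thus near 0 in both groups, while Tagln, whose promoter drives the Cre, was at 80.5, 79.1 and 70.3 FPKM against 12.5, 87.3 and 57.1 FPKM. Tpm2, at 32.8 to 104 FPKM, and Smtn, at 45.9 to 63.1 FPKM, had overlapping groups.

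Heart muscle genes were mostly silent beside these factors. Of 17 cardiomyocyte markers, 13 had a row, and 7 of them (Myh7, Ttn, Pln, Mybpc3, Ryr2, Hcn4 and Actn2) were below 0.1 FPKM in every library. The summed level was 148, 82.7 and 83.3 FPKM in the controls and 99.1, 100 and 97.8 FPKM in the knockouts, most of it from Atp2a2, the calcium pump that other cells use too, and limma called 0 of 5 tested in either direction (1 had an unadjusted p under 0.05), also with the block. Myl7, the atrial myosin light chain, was at 0, 1.62 and 1.26 FPKM in the controls and at 0.44, 13.5 and 8.50 FPKM in the knockouts, lowest in replicate 1 of each group like Gata6 (adjusted p of 0.342 by limma, and 0.0375 without Smyd2 SMC-/- replicate 1; 0.000415 to 0.661 over the alternatives). Tnnt2 was at 29.1, 8.17 and 7.51 FPKM against 3.44, 4.13 and 4.43 FPKM, and Tnnc1 lay between 1.48 and 5.13 FPKM.

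Markers of other cells moved in part with the groups and in part with the replicate number. The 9 measured fibroblast markers summed to 676, 1594 and 1500 FPKM in the controls and 1477, 1549 and 1123 FPKM in the knockouts, led by Col1a1. Limma called 1 of 9 lower and 0 higher, and 3 lower with the block, adding Ly6a and Cd34 (adjusted p-values of 0.0404 and 0.0269; 0.000336 to 0.823 and 0.000230 to 0.210 over the alternatives), of which Cd34 was named after its values were seen. The gene called without the block was Dpt, an extracellular matrix gene, which fell from 144, 90.3 and 65.5 FPKM to 3.31, 1.15 and 0.63 FPKM (log2 fold change -5.28 ± 0.43, SE; adjusted p of 0.00417 by limma). From replicates 2 and 3 alone limma called 6 lower and 1 higher, in the fit that called 29.0% of all tested genes. Pdgfra, named after its values were seen, was at 18.1, 31.9 and 29.8 FPKM in the controls and at 11.8, 4.85 and 7.10 FPKM in the knockouts, without overlap (adjusted p of 0.0601 by limma). Of the 9, 4 had a positive log2 fold change. Col1a1 was at 362, 444 and 491 FPKM in the controls and at 1333, 831 and 522 FPKM in the knockouts, without overlap (adjusted p of 0.186 by limma), and Lum, named after its values were seen, was at 0, 1.31 and 1.17 FPKM against 0.26, 14.5 and 10.4 FPKM (0.342 by limma). Dcn was at 13.9 and 25.6 FPKM in the replicate 1 libraries and at 257 to 383 FPKM in the others, a split by replicate number like that of Gata6 and the mesothelial markers, and Col3a1 was at 13.5, 231 and 225 FPKM against 62.8, 147 and 85.6 FPKM. Of 9 measured endothelial markers, 1 was tested, Kdr, and limma did not call it; Cdh5 and Tie1 were below 0.1 FPKM in every library, and the sum was 1.82 to 5.64 FPKM. Kdr was at 0.47, 0.58 and 0.84 FPKM in the controls and at 0.96, 5.15 and 2.96 FPKM in the knockouts, without overlap (adjusted p of 0.186 by limma, and 0.0277 without Smyd2 SMC-/- replicate 1; 0.00260 to 0.441 over the alternatives). Pecam1 had the opposite order, at 0.56, 0.88 and 0.92 FPKM against 0.12, 0.18 and 0 FPKM, also without overlap (adjusted p of 0.0595 by limma in the fit of all genes). Egfl7 and Emcn did not exceed 0.82 and 0.42 FPKM, with overlapping groups. The 6 macrophage markers summed to 18.3 to 42.6 FPKM, led by Cd14, with Ptprc and Adgre1 below 0.1 FPKM in every library and 0 of 4 tested called by limma (1 had an unadjusted p under 0.05). Csf1r was at 0.58, 0.53 and 0.48 FPKM against 1.66, 1.42 and 1.14 FPKM without overlap (adjusted p of 0.102 by limma), and Cd68 and Lyz2 did not exceed 4.87 and 4.04 FPKM, with overlapping groups. The part of fibroblast-like cells in the values of the members was not tested.

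Embryonic sources of aortic smooth muscle were read through their transcription factors. Of 12 neural crest factors, 9 had a row and 5 were tested; Sox10 and Pax3 were below 0.1 FPKM in every library, and limma called 0 in either direction (2 had an unadjusted p under 0.05) and 1 lower and 1 higher with the block. The sum was 84.3, 57.8 and 60.8 FPKM in the controls and 64.9, 30.0 and 30.4 FPKM in the knockouts. Snai2 had the highest mean over the 6 libraries, but Dlx2 and Ets1 were above it in Smyd2 SMC-/- replicates 2 and 3. Snai2 was at 39.4, 33.6 and 37.3 FPKM against 29.4, 8.48 and 7.71 FPKM, without overlap, with a log2 fold change of -1.47 ± 0.47 (SE) and an adjusted p of 0.153 by limma, and of 0.00384 without Smyd2 SMC-/- replicate 1 (0.0000320 to 0.404 over the alternatives). Dlx2 was at 5.43 to 13.7 FPKM with overlapping groups. Msx1, the gene called higher with the block, was at 0.23, 0.41 and 0.47 FPKM against 6.67, 2.34 and 2.57 FPKM. Its adjusted p by limma was 0.0580, and 0.0407 with the block (0.000796 to 0.188 over the alternatives). Msx1 passed the filter only through the knockouts, as its control mean was 0.370 FPKM. Tested without the filter or the block, its adjusted p by limma was 0.0818. Ets1, the gene called lower, was at 28.9, 17.8 and 16.7 FPKM against 17.8, 8.65 and 12.0 FPKM. The adjusted p of Ets1 by limma was 0.271, and 0.0416 with the block (0.0123 to 0.539 over the alternatives). Of 8 somite factors, 5 had a row and 2 were tested (Foxc1, which is also in the list of heart factors, and Scx), with 0 called by limma, also with the block, 1 with an unadjusted p under 0.05 and a sum of 12.8 to 23.3 FPKM. Pax9, below the filter, was at 0.44, 0.37 and 0.38 FPKM in the controls and at 0.04, 0.05 and 0.01 FPKM in the knockouts, with an adjusted p of 0.0166 by limma in the fit of all genes, and Meox1 did not exceed 0.24 FPKM. None of the 5 long non-coding RNAs listed beside the members was analysed here.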

How the data were processed

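Libraries from cultured aortic VSMCs, 3 of Smyd2 fl/fl and 3 of Smyd2 SMC-/- genotype, were compared, with groups and replicate numbers taken from the labels. Per the labels and the study's methods, the authors used SOAPnuke for read filtering, HISAT and Bowtie2 for mapping and RSEM for quantification, and deposited FPKM values rounded to 2 decimals; tool versions and genome build are not given in the sources used here. From the steps of low FPKM values, depth was estimated as 18000000, 19500000 and 19300000 fragments for the Smyd2 fl/fl libraries and 16700000, 19100000 and 18600000 for the Smyd2 SMC-/- libraries (72.3% to 75.7% of low values within 0.15 of a whole fragment, where chance gives 30%), so fragment numbers are approximate. The rows of Gata4, Gata6 and Tbx18 also list transcripts without a RefSeq name. No gene listed at 0 in 1 library had 10 FPKM or more in every other.

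A pseudocount of 1 was added to FPKM before the log2, and genes averaging 0.5 FPKM or more were fitted with limma 3.58.1 in R 4.3.3 (eBayes with trend and robust settings; Benjamini-Hochberg adjustment over 12565 genes; called at an adjusted p under 0.05), since FPKM values are not counts. Members below the filter were read from a fit of all 18112 genes. Among the named genes, Tbx3 passed the filter only through the controls, and Nkx3-2, Mef2c, Msx1 and Aldh1a2 only through the knockouts. The fit was also run on simulated data, and the outcome is not given here. Exact permutation tests used scipy 1.17.1. Alternatives were a pseudocount of 0.1, no filter, a replicate block, each library left out, replicates 2 and 3 alone, TPM scaling (where the pseudocount weighs less), quantile normalization, a fold change above 2 with an adjusted p under 0.01, and detection at 0.1 FPKM; differences within replicate numbers were added after seeing the data. Deviations of same-numbered libraries from their group means correlated at r = 0.61, 0.46 and 0.53 across genes, which are not independent replicates, so the numbers in the labels were taken to pair the libraries; replicates 2 and 3 of opposite groups also correlated (0.46 and 0.44).

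The members and lists were chosen with earlier results of these data known. Of the planned cardiomyocyte markers, 1 is not reported here. Named genes were all members, Smyd2, up to 6 called genes of each list and its 4 other most abundant, and the 2 most like each tested member. Positions came from GENCODE M21 (GRCm38) and promoters from RefSeq.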

Additional observations from a re-analysis of the deposited data

How the results depend on the processing

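Of the members, Tbx3 kept its sign in all 12 alternatives and was called in 3, Gata4 in 4 of 12 and Gata6 in 2 of 12; Tbx2, Tbx20, Hand2 and Nkx2-5 were called in 0 of 11. Without the block, 152 genes were called lower and 154 higher. These were 719 and 593 with the replicate block, 2156 and 1494 from replicates 2 and 3 alone, 99 and 247 after TPM scaling, and 26 and 27 when a fold change over 2 was asked for with an adjusted p under 0.01. Leaving out 1 library gave 16 to 313 lower and 16 to 373 higher. Members called lower were 1 with the replicate block, 1 from replicates 2 and 3 alone and 0 to 1 with a library left out; members called higher were 2, 2 and 0 to 1, and 1 after TPM scaling. Each was 0 under the other settings. Asking for 0.1 FPKM lowered the members detected in Smyd2 fl/fl from 7 to 4. Tbx18 moved to 0.023 with the median of all genes after TPM scaling (taken from it, -0.068 before and -0.072 after) and ranged from -0.186 to 0.037 with a library left out, positive without Smyd2 fl/fl replicate 1. Col3a1, near 0 over all libraries (0.033), was -1.02 from replicates 2 and 3 alone. The block changed no call of a member or list gene other than those given with it. The cause of these changes was not tested. Depth limits Nkx2-5, Tbx2, Hand2 and Tbx20, at 0 to 24 fragments per library.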
